A study of Rattus norvegicus with 10 samples.

Results

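The genes described here are 6 that are usually named with astrocytes, measured in cultures of rat microglia: Glul, Vim, S100b, Aqp4, Agt and Pmp22. They were taken as all probe sets whose single gene symbol in the platform annotation is one of these names, which gave 11 of the 8740 probe sets tested and 6 of 4736 genes. Glul was represented by 4 probe sets, S100b and Pmp22 by 2 each, and Vim, Agt and Aqp4 by 1 each. The series used 10 Affymetrix rat arrays of total RNA from microglia of neonatal rat brain, grown from 1 brain per flask in 15% fetal calf serum and plated on day 15. The 5 control cultures (numbered 1, 2, 3, 5 and 6) received fresh medium. The 3 interferon gamma (IFN-gamma) cultures (1, 2 and 3) received fresh medium with 100 U/ml of the cytokine for 16 hours, and IFN-gamma culture 1 was measured on 3 technical arrays (1a, 1b and 1c), which were averaged. The labels name no genotype, strain or measure of purity, and the age is given as neonatal. They number the samples without saying whether each number is a separate preparation, so p-values measure the spread between these samples, which may be partly technical.

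Astrocytes and microglia grow out of the same neonatal brain tissue, and astrocytes form the layer from which microglia are usually harvested. In the brain, astrocytes take up released glutamate and turn it into glutamine with glutamine synthetase, the enzyme encoded by Glul, and they carry vimentin filaments (Vim) together with GFAP. S100b encodes a small calcium-binding protein secreted by astrocytes, Aqp4 the water channel of their endfeet, and Agt angiotensinogen, the precursor of the angiotensin peptides, for which astrocytes are the main source in brain. Glul and Vim are also expressed by macrophages, and Vim by fibroblasts and endothelial cells. Pmp22 encodes a membrane protein of peripheral myelin, is known above all from Schwann cells and was also cloned as the growth arrest gene Gas-3, so it is no specific astrocyte marker.

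Glul, Vim and Pmp22 were bright and fell with IFN-gamma by their brightest probe set, by 3.15-fold, 1.95-fold and 3.23-fold. The dim genes S100b and Aqp4 did not pass the test in either direction, with log2 fold changes of -0.15 and -0.17. Agt lay between these, with a log2 fold change of -0.91 that did not pass. Of the 11 probe sets 10 had a negative log2 fold change and 3 passed, 1 each for Glul, Vim and Pmp22. Over all 8740 probe sets 0.606% were called lower (53) and 0.927% higher (81), and 1.19% were called lower among the 4370 above the median level and 3.32% among the 874 in the brightest 10 percent. The log2 fold change was negative for 52.7% of all probe sets and for 55.9% of the brightest 10 percent. A call means an adjusted p under 0.05 in limma's test with Benjamini-Hochberg adjustment over 8740 probe sets. The median log2 fold change was -0.02 over all probe sets and -0.07 over the brightest 10 percent. The 3 IFN-gamma cultures lay below all 5 controls in 5 of the 11 probe sets, against 3.4% of all probe sets. These were 3 Glul probe sets, Vim and Pmp22 S55427_s_at, and the share among bright probe sets alone was not counted. Levels are normalised log2(signal + 16) values, on which a signal of 0 is 4, so a change of a dim gene is understated. In such bulk RNA, fewer cells of a type and less RNA per cell cannot be told apart. Brightness also depends on the probes, so levels are compared between cultures for 1 probe set and not between genes.

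The promoters of the 3 genes that fell are shown as a description. IFN-gamma acts through known DNA elements, and whether these take part in the fall was not tested. The windows are the 250 bases before an annotated start (RefSeq, build GRCr8, plus strand), at chr13:68575816-68576065 for the downstream of both Glul entries, chr17:81577011-81577260 for Vim and chr10:48294682-48294931 for Pmp22. Capitals mark a match, on either strand, to the gamma-activated site TTCNNNGAA, the interferon-stimulated response element (GAAA, any 2 bases, GAAA) or the TATA box TATAAA.
Glul: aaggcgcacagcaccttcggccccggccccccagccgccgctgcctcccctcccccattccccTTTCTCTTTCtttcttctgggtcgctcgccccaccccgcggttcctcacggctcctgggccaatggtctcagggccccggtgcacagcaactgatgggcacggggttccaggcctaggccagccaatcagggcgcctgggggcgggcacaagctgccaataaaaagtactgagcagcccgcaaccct
Vim: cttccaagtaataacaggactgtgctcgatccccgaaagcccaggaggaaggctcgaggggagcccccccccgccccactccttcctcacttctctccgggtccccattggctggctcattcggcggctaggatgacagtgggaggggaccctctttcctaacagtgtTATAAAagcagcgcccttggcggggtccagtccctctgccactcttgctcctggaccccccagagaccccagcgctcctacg
Pmp22: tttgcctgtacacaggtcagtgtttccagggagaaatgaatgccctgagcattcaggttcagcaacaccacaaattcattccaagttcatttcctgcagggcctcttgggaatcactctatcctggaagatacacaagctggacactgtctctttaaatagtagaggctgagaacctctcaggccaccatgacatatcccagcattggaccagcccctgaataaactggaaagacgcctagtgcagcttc
The match in Glul is to the interferon-stimulated response element on the opposite strand and begins 187 bases before the start, within a run of pyrimidines. Such a match occurs in 3.41% of 33469 windows of this length. The match in Vim is the TATA box, beginning 82 bases before the start, a motif found in 12.9% of windows. The other Glul window, chr13:68519250-68519499, and that of Pmp22 had 0 matches, and no window of the 5 members with an entry held the gamma-activated site, which 7.67% of all windows hold. The GC content was 67.2% for Glul, 62.4% for Vim and 48% for Pmp22, against a median of 51.2%.

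**Figure D1:**
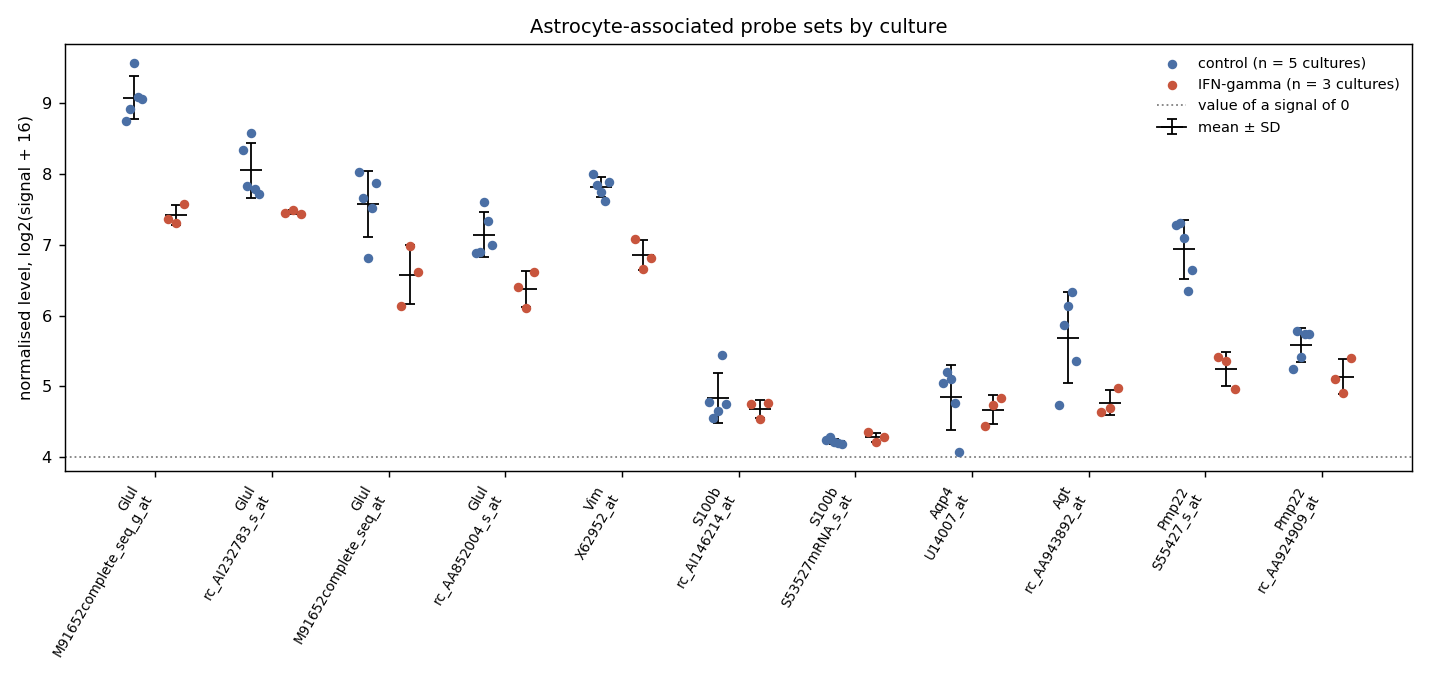
Normalised level, log2(signal + 16), of the 11 probe sets in each culture (points), with mean ± SD over 5 control and 3 IFN-gamma cultures. The IFN-gamma cultures lie below every control for 3 Glul probe sets, Vim and Pmp22 S55427_s_at, and the points of both groups overlap for S100b, Aqp4 and Agt.

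Glutamine synthetase was the enzyme gene among the 6, and its brightest probe set, M91652complete_seq_g_at, fell. That probe set is of a kind with reduced specificity. It read 8.75, 8.92, 9.56, 9.09 and 9.06 in control cultures 1, 2, 3, 5 and 6, and 7.37, 7.31 and 7.58 in IFN-gamma cultures 1, 2 and 3. Every IFN-gamma culture was below every control, with a gap of 1.17 between the nearest cultures. The mean went from 9.08 ± 0.303 (SD, n = 5) to 7.42 ± 0.142 (SD, n = 3), a log2 fold change of -1.66 ± 0.204 SE (limma adjusted p = 0.00301). The probe set was brighter than 98.2% to 99.2% of all probe sets in the controls and than 94.3% to 95.4% with IFN-gamma. These positions did not overlap. Because quantile normalisation sets each level by its rank on its array, they restate the levels and add no separate support. The call was lost with no scaling between arrays (log2 fold change -0.99, limma adjusted p = 0.729) and with array medians subtracted (-1.12, limma adjusted p = 0.148), so the size of the fall depends on how arrays are brought to a common scale.

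The 3 other Glul probe sets pointed the same way by smaller amounts, and none passed. Of these, rc_AI232783_s_at and rc_AA852004_s_at are also of a kind with reduced specificity, and M91652complete_seq_at is not. For rc_AI232783_s_at the controls ran from 7.71 to 8.58 and the IFN-gamma cultures from 7.44 to 7.49, without overlap (log2 fold change -0.59, 95% interval -1.1 to -0.07, limma adjusted p = 0.383). For rc_AA852004_s_at the ranges were 6.88 to 7.6 and 6.11 to 6.62, also without overlap (-0.77, interval -1.26 to -0.27, limma adjusted p = 0.179). For M91652complete_seq_at, made from the same sequence record as the brightest one, control culture 3 at 6.81 lay within the IFN-gamma range of 6.14 to 6.98 (-1, interval -1.67 to -0.33, limma adjusted p = 0.2). The brightest probe set changed more than rc_AI232783_s_at by 1.07 and more than rc_AA852004_s_at by 0.89 on the log2 scale, in both cases without overlap of the culture values. Each of these differences had an exact permutation p = 0.0179 over the 56 choices of 3 of 8 cultures, the smallest the design allows, and 0.0536 after adjustment over the 6 pairs of Glul probe sets. The other 4 pairs had adjusted exact p-values between 0.5 and 0.679. The amount of the fall is therefore given per probe set.

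Of 19 other measured genes of glutamate and glutamine metabolism and transport 0 rose and 0 fell by limma (3 higher and 0 lower at an unadjusted p under 0.05), with a median log2 fold change of 0.00 beside -0.02 over all genes. Of all 4736 genes, each by its brightest probe set, 0.697% were called lower, 0.887% higher and 1.58% in either direction, and 11.1% had an unadjusted p under 0.05 (5.26% lower). The brightest were the mitochondrial enzymes Glud1, which converts glutamate to oxoglutarate (7.13 ± 0.295 in controls, n = 5, and 7.16 ± 0.196 with IFN-gamma, n = 3), and Got2, an aspartate aminotransferase (6.71 ± 0.308 and 6.68 ± 0.123). Both means moved by less than the spread between cultures. A dimmer Got2 probe set, rc_AA892012_g_at, was called higher, from 4.45 ± 0.28 to 5.69 ± 0.334 (limma adjusted p = 0.026), so the probe sets of this gene disagree. The glutamate transporter gene Slc1a3, found in astrocytes and in activated microglia, lay at 6.17 ± 0.383 and 6.04 ± 0.0301 (log2 fold change -0.13, limma adjusted p = 0.934). Slc1a2, the main astrocyte glutamate transporter, lay at 5.4 ± 0.737 and 5.22 ± 0.714 (-0.18, limma adjusted p = 0.96).

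Vim, the filament gene, fell by its single probe set, X62952_at. It read 8, 7.84, 7.75, 7.62 and 7.88 in control cultures 1, 2, 3, 5 and 6, and 7.08, 6.66 and 6.82 in IFN-gamma cultures 1, 2 and 3. The controls were close together and the gap to the nearest IFN-gamma culture was 0.54. The log2 fold change was -0.96 ± 0.168 SE (limma adjusted p = 0.0239), from 7.82 ± 0.144 (SD, n = 5) to 6.86 ± 0.214 (SD, n = 3). Its position moved from above 95.6% to 96.7% of probe sets to above 89.8% to 93.4%, which restates these levels as ranks. The Vim call was the least secure of the 3. It was lost in 11 of 21 other settings, in 10 of which the log2 fold change lay between -1.07 and -0.61, and the eleventh was no scaling (-0.48, limma adjusted p = 0.937). Leaving out control culture 2 or 6 or IFN-gamma culture 2 or 3 ended it (limma adjusted p = 0.0565, 0.0675, 0.15 and 0.131). In culture 1 the technical arrays 1a, 1b and 1c read 7.13, 7.41 and 6.71, an SD of 0.35, larger than the SD of 0.144 between the control cultures.

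Of 17 other intermediate filament genes and partners 0 rose and 0 fell by limma (0 also at an unadjusted p under 0.05), and 14 had a negative log2 fold change (median -0.22), against 52.9% of all genes. The brightest were Hspb1, a small heat shock protein that binds filaments (7.43 ± 0.54 in controls and 7.17 ± 0.609 with IFN-gamma), and the crosslinker Plec (6.56 ± 0.271 and 6.59 ± 0.267). Nes, the nestin gene of neural progenitors and reactive astrocytes, lay at 5.64 ± 0.529 and 5.81 ± 0.209 (limma adjusted p = 0.936). No probe set carried the single symbol Gfap, so the defining astrocyte filament was not analysed here.

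Pmp22, the peripheral myelin gene, fell by its brighter probe set, S55427_s_at, which is of a kind with reduced specificity. The controls read 7.28, 7.31, 7.09, 6.35 and 6.65 in cultures 1, 2, 3, 5 and 6 and the IFN-gamma cultures 5.41, 5.36 and 4.97. Cultures 5 and 6 were the lowest controls, and the nearest IFN-gamma culture was still 0.94 below them. The mean went from 6.93 ± 0.421 (SD, n = 5) to 5.24 ± 0.239 (SD, n = 3), a log2 fold change of -1.69 ± 0.256 SE (limma adjusted p = 0.011). This was the largest move in position, from above 86.1% to 94.3% of probe sets in the controls to above 49.5% to 67.9% with IFN-gamma. The call held with array medians subtracted (-1.56, limma adjusted p = 0.017) and with a trimmed mean (-1.77), and was lost with no scaling (-1.44, limma adjusted p = 0.327) and without IFN-gamma culture 1, 2 or 3 (limma adjusted p = 0.0507, 0.0531 and 0.0804).

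The second Pmp22 probe set, rc_AA924909_at, did not pass (log2 fold change -0.45, limma adjusted p = 0.469). Its controls ran from 5.24 to 5.78 and its IFN-gamma cultures from 4.91 to 5.4, with overlap. The 2 probe sets differed in their change by 1.24 on the log2 scale (exact permutation p = 0.0357 over the 56 choices, two-sided). As the only pair of this gene, it had no adjustment. Of 13 other measured genes of the PMP22, EMP and claudin superfamily, peripheral myelin and Pmp22's folding partners 0 rose and 0 fell by limma (2 higher and 2 lower at an unadjusted p under 0.05), with a median log2 fold change of 0.19. Emp1, a close relative, lay near the floor at 4.47 ± 0.226 and 4.53 ± 0.0656. The endoplasmic reticulum chaperones Calr and Canx were the brightest, with log2 fold changes of -0.76 (limma adjusted p = 0.141) and 0.95 (limma adjusted p = 0.386). Of 4 measured Schwann cell and peripheral myelin markers 0 passed by limma (1 higher at an unadjusted p under 0.05). That gene was Prx, the periaxin gene, with 4.68 ± 0.32 and 5.6 ± 0.263 (0.92, limma adjusted p = 0.106), named after its values were seen. Gjb1, a gap junction gene, lay at 5.22 ± 0.326 and 5.51 ± 0.366. The probe set of Ngfr, a neurotrophin receptor gene, gave 76.8% of the summed signal of these 4 genes. It is of a kind that can bind several members of a family. Its level was 7.5 ± 1.2 in controls, from 5.4 to 8.2, and 7.81 ± 0.292 with IFN-gamma (log2 fold change 0.31, limma adjusted p = 0.945).

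**Figure D2:**
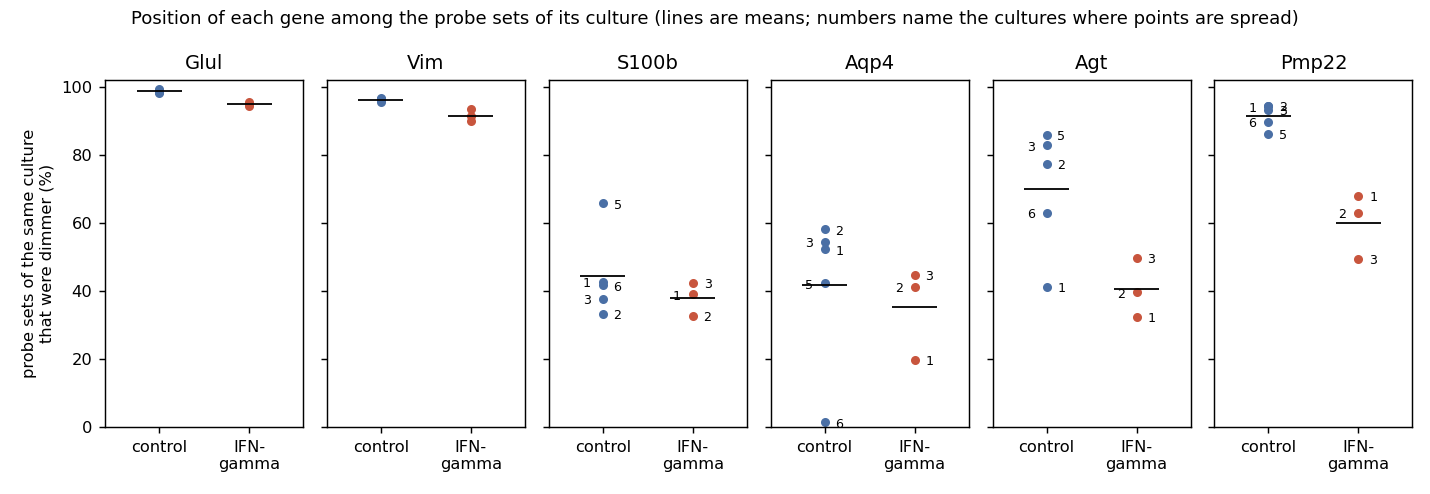
Share of the probe sets of the same culture that were dimmer (percent) than the brightest probe set of each gene, per culture, with group means as lines. Glul and Vim stay above 89% in every culture, Pmp22 moves from 86.1% or more to 67.9% or less, and S100b, Aqp4 and Agt overlap between groups. These positions restate the normalised levels as ranks within a culture.

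Agt, the angiotensinogen gene, was the most variable of the 6 among untreated cultures. Its probe set rc_AA943892_at read 4.74, 5.87, 6.13, 6.33 and 5.36 in control cultures 1, 2, 3, 5 and 6, an SD of 0.64, and 4.64, 4.7 and 4.98 in the IFN-gamma cultures. Control culture 1 lay within the IFN-gamma range, and the other 4 controls lay above it. The deposited Agt signal was 16 or lower on 5 of 10 arrays, so its low values lie near the floor. The log2 fold change of -0.91 had a 95% interval of -1.68 to -0.15 and did not pass (limma adjusted p = 0.343, limma unadjusted p = 0.0245). Over all probe sets 10.5% had an unadjusted p under 0.05 by limma, 4.76% in this direction. The Agt probe set did not pass in any of 21 other settings. Without control culture 1 the log2 fold change was -1.15 (limma adjusted p = 0.0752).

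Of 14 other genes of the renin-angiotensin system and its peptidases 0 rose and 0 fell by limma (0 higher and 2 lower at an unadjusted p under 0.05; median log2 fold change -0.08). The brightest were the kinin receptor gene Bdkrb1 (6.72 ± 0.55 in controls and 6.58 ± 0.397 with IFN-gamma) and Anpep, an aminopeptidase that trims angiotensin peptides (6.49 ± 0.21 and 6.02 ± 0.275, limma adjusted p = 0.418). Ace, the converting enzyme, lay at 6.09 ± 0.648 and 6.22 ± 0.0973. The receptor gene Agtr1b had a log2 fold change of -0.88 (limma adjusted p = 0.317), from a probe set of a kind that can bind several members of a family.

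S100b and Aqp4 stayed dim in both groups. The brighter S100b probe set, rc_AI146214_at, read 4.78, 4.55, 4.65, 5.44 and 4.75 in control cultures 1, 2, 3, 5 and 6 and 4.75, 4.54 and 4.77 in the IFN-gamma cultures. Control culture 5 stood apart, and all other cultures lay between 4.54 and 4.78. The log2 fold change was -0.15, with a 95% interval of -0.65 to 0.35 (limma adjusted p = 0.914), and its deposited signal was 16 or lower on 9 of 10 arrays. The other probe set, S53527mRNA_s_at, was at or below that signal on 10 of 10 arrays and lay at the floor, with 4.23 ± 0.0357 (SD, n = 5) and 4.28 ± 0.0672 (SD, n = 3).

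The Aqp4 probe set, U14007_at, read 5.05, 5.21, 5.11, 4.77 and 4.08 in control cultures 1, 2, 3, 5 and 6 and 4.44, 4.74 and 4.83 in the IFN-gamma cultures. Control culture 6 was the lowest of all 8 and was brighter than 1.54% of its probe sets, whereas the other controls were brighter than 42.3% to 58.1%. The log2 fold change of -0.17 had a 95% interval of -0.78 to 0.43 (limma adjusted p = 0.922). The signal was 16 or lower on 8 of 10 arrays. At this brightness a fall as large as that of Glul could not be seen on this scale, since the control mean of 4.84 is less than 1 above the floor of 4.

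Of 11 other genes of the S100 family and its partners 0 rose and 0 fell by limma (0 higher and 3 lower at an unadjusted p under 0.05; median log2 fold change -0.23). The brightest were Anxa2, an annexin that binds an S100 protein, with 7.99 ± 0.209 and 7.28 ± 0.291 (limma adjusted p = 0.152), and the calmodulin gene Calm2, with 6.95 ± 0.361 and 6.66 ± 0.154. Of 11 aquaporins and anchoring partners of Aqp4 0 passed by limma (1 higher and 2 lower at an unadjusted p under 0.05; median -0.08). The brightest were the lens aquaporin gene Mip (6.09 ± 0.328 and 5.94 ± 0.214) and Aqp9, a channel for water and glycerol (5.91 ± 0.597 and 5.74 ± 0.182). Kcnj10, the potassium channel that lies beside Aqp4 in astrocyte endfeet, lay at 5.02 ± 0.667 and 4.97 ± 0.342.

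The change of the bright genes Glul, Vim and Pmp22 was set against that of the dim S100b and Aqp4 and of Agt culture by culture, for 9 pairs. The fall of Glul exceeded the change of S100b by 1.51 and that of Aqp4 by 1.48 on the log2 scale, and the fall of Pmp22 exceeded that of Aqp4 by 1.52. In these 3 pairs the groups did not overlap (exact permutation p = 0.0179 each, 0.0536 after adjustment over the 9 pairs). The groups were also separate for Pmp22 against S100b (1.54 more, adjusted exact p = 0.0804) and, narrowly, for Glul against Agt (0.74 more, adjusted exact p = 0.0918). Vim exceeded S100b by 0.81 and Aqp4 by 0.79, with adjusted exact p-values of 0.0918. The fall of Pmp22 exceeded that of Agt by 0.78, with overlap of the groups (adjusted exact p = 0.241). Vim and Agt differed in their change by 0.05 (adjusted exact p = 0.893). No pair passed after adjustment. Since 0.0179 is the smallest exact p the design allows, full separation of the groups in 3 pairs was not enough to pass. The floor of the scale holds down the change of the dim genes.

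**Figure D3:**
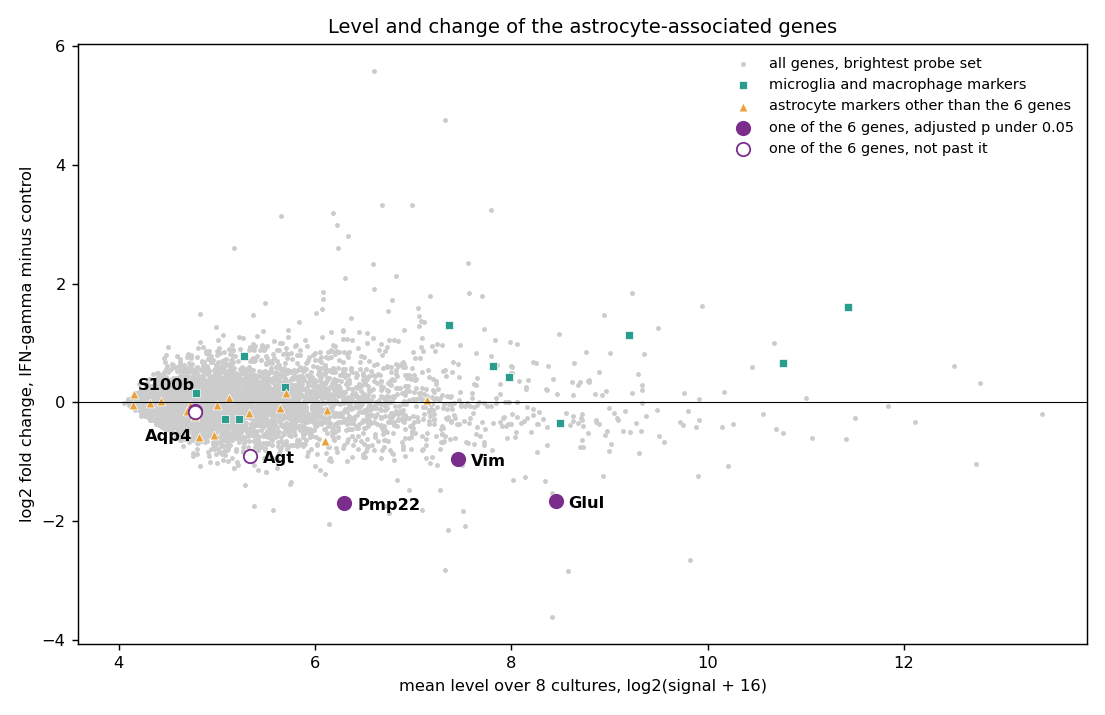
Mean level over 8 cultures, log2(signal + 16), against log2 fold change for the brightest probe set of every gene (grey), with the 6 genes in purple, other astrocyte markers in orange and microglia markers in green. Glul, Vim and Pmp22 (filled, past the threshold) lie at -1.66, -0.96 and -1.69, while the other astrocyte markers lie around a median of -0.05.

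None of the wider set of astrocyte markers passed the test. Of 17 other measured astrocyte markers 0 rose and 0 fell by limma (0 also at an unadjusted p under 0.05), 12 had a negative log2 fold change and the median was -0.05. In 8 of the 17 the mean level lay below the median of all probe sets. Gja1, the main astrocyte gap junction gene, lay at the floor with 4.11 ± 0.0498 over the 5 controls and 4.24 ± 0.279 over the 3 IFN-gamma cultures. Aldoc, the brain aldolase gene, lay at 5.1 ± 0.437 and 5.17 ± 0.219, and Fabp7, the radial glia fatty acid binding protein gene, at 5.18 ± 0.509 and 4.62 ± 0.418 (limma adjusted p = 0.621). The summed signal of these 17 genes ran from 429 to 596 in the controls and from 390 to 431 with IFN-gamma. Glud1, which most tissues express, gave 27.7% of that sum.

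Of the microglia markers Lyz2, C1qb and C1qc rose with IFN-gamma by their brightest probe sets. The summed signal of 12 measured markers ran from 4150 to 5190 in the controls and from 9800 to 10800 with IFN-gamma, with Lyz2, the lysozyme gene, giving 48.1% of it. By limma 3 of 12 rose and 0 fell, beside 0.887% of all genes called higher, and 3 had a negative log2 fold change that did not pass (Cd14 -0.34, Cx3cr1 -0.29 and Fcgr2b -0.28, named after their values were seen). Lyz2 rose 3.05-fold (limma adjusted p = 0.00464). The complement genes C1qb and C1qc rose 2.21-fold and 2.48-fold (limma adjusted p = 0.0239 and 0.0364). The 1 other C1qb probe set also passed, whereas neither of the 2 other C1qc probe sets did. Over all cell type lists 3 genes passed, and only 1, Lyz2, did so without control culture 2 or 6 or IFN-gamma culture 2 or 3. Ctss, the second brightest, had a log2 fold change of 0.66 (limma adjusted p = 0.0835). Aif1, which encodes the microglial marker IBA1, lay at 7.81 ± 0.529 and 8.24 ± 0.228, Itgam, the CD11b gene, at 4.98 ± 0.24 and 5.77 ± 0.158 (limma adjusted p = 0.0951) and Csf1r at 4.73 ± 0.497 and 4.88 ± 0.665. No probe set carried the single symbol Cd68.

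Markers of other cells that can grow in such cultures were summed in the same way. The summed signal of 13 fibroblast, pericyte and meningeal markers ran from 304 to 390 in the controls and from 226 to 271 with IFN-gamma, and that of 11 oligodendrocyte and precursor markers from 231 to 400 and from 179 to 207. In both of these lists the sum of every IFN-gamma culture lay below that of every control. The same held for the list of the S100 family and its partners (583 to 804 and 476 to 572), and for 3.4% of all single probe sets. The astrocyte list, at 429 to 596 and 390 to 431, overlapped narrowly. By limma, on the brightest probe set of each gene, 0 of 13 fibroblast, pericyte and meningeal markers passed (0 higher and 3 lower at an unadjusted p under 0.05). Of the 11 oligodendrocyte and precursor markers 0 passed (0 higher and 4 lower at an unadjusted p under 0.05). The brightest were Acta2, smooth muscle actin (6.01 ± 0.493 and 5.97 ± 0.0783), and the collagen gene Col1a1 (5.83 ± 0.656 and 5.83 ± 0.101) in the first list, where another Col1a1 probe set, M27207mRNA_s_at, was called lower (5.97 ± 0.233 and 4.77 ± 0.344, limma adjusted p = 0.0239), and the myelin gene Mag (6.28 ± 0.351 and 5.58 ± 0.0767) and the precursor receptor gene Pdgfra (5.98 ± 0.432 and 5.26 ± 0.485) in the second. Neuron markers ran from 202 to 369 and from 168 to 292 in sum, and endothelial markers from 75.6 to 167 and from 76.5 to 132, with overlap in both. Of 14 neuron and 4 endothelial markers 0 passed by limma (0 also at an unadjusted p under 0.05). The brightest were the synaptic genes Snap25 (5.96 ± 0.384 and 5.76 ± 0.534) and Syn1 (5.81 ± 0.63 and 5.78 ± 0.758), and the vessel genes Pecam1 (5.38 ± 0.674 and 5.64 ± 0.284) and Vwf (5.49 ± 0.212 and 5.27 ± 0.453). Whether other cell types contributed to the fall of Vim, Glul or Pmp22 was not tested.

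**Figure D4:**
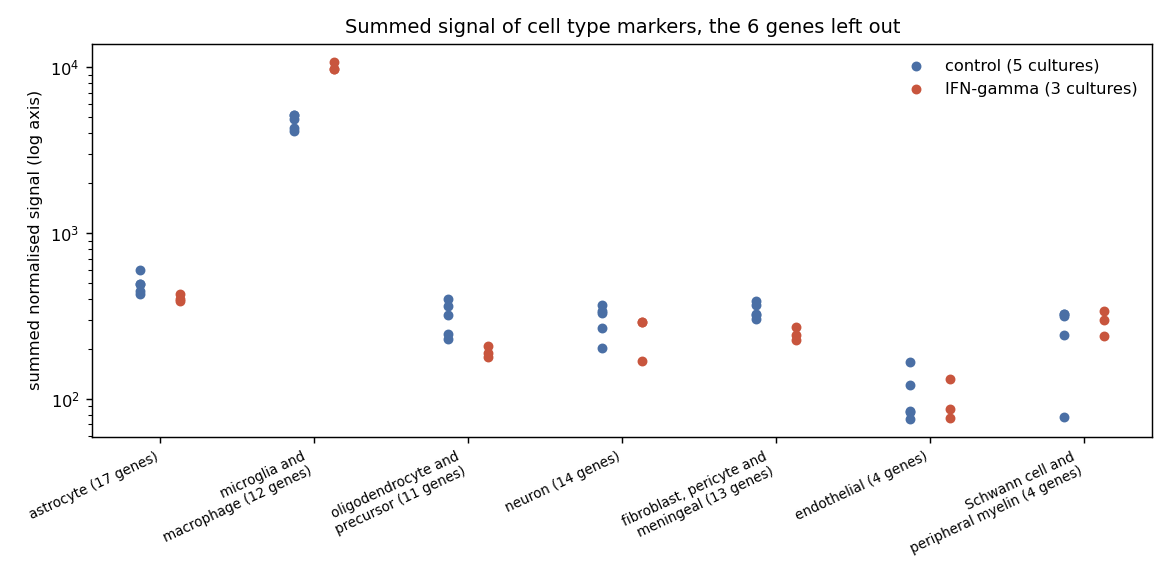
Summed normalised signal (log axis) of 7 lists of cell type markers in each of 5 control and 3 IFN-gamma cultures, without the 6 genes. Microglia markers run from 4150 to 5190 in the controls and from 9800 to 10800 with IFN-gamma, while the astrocyte list runs from 429 to 596 and from 390 to 431.

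For each of the 6 genes brighter than the median probe set, the genes with the most similar course over the 8 cultures were sought among 2712 others, by the mean absolute difference of log2 levels after each gene's own mean was subtracted. For Glul they were Igf1, insulin-like growth factor 1 (difference 0.126), the small GTPase gene Arl11 (0.157) and Fcgrt, the neonatal Fc receptor gene (0.265), where the median candidate differed by 0.796. For Vim they were the creatine synthesis gene Gatm (0.134), Pea15, a phosphoprotein first described in astrocytes (0.141), and Il1a (0.142), beside a median of 0.533. For Pmp22 they were the receptor gene Fgfr1 (0.282), the endocytic adaptor gene Dab2 (0.283) and the protease gene Ctsb (0.299), beside a median of 0.84. Their log2 fold changes lay between -2.09 and -0.76, a direction that follows from choosing them for their likeness to genes that fell. Agt was followed most closely by the sulfotransferase gene Sult5a1 (0.0586), then by the sodium channel gene Scn3a (0.164) and the retinaldehyde dehydrogenase gene Aldh1a1 (0.165), beside a median of 0.643. Sult5a1 ran closer to Agt than any other of the 12 genes ran to its partner. S100b and Aqp4 lay below the median and were left out.

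**Figure D5:**
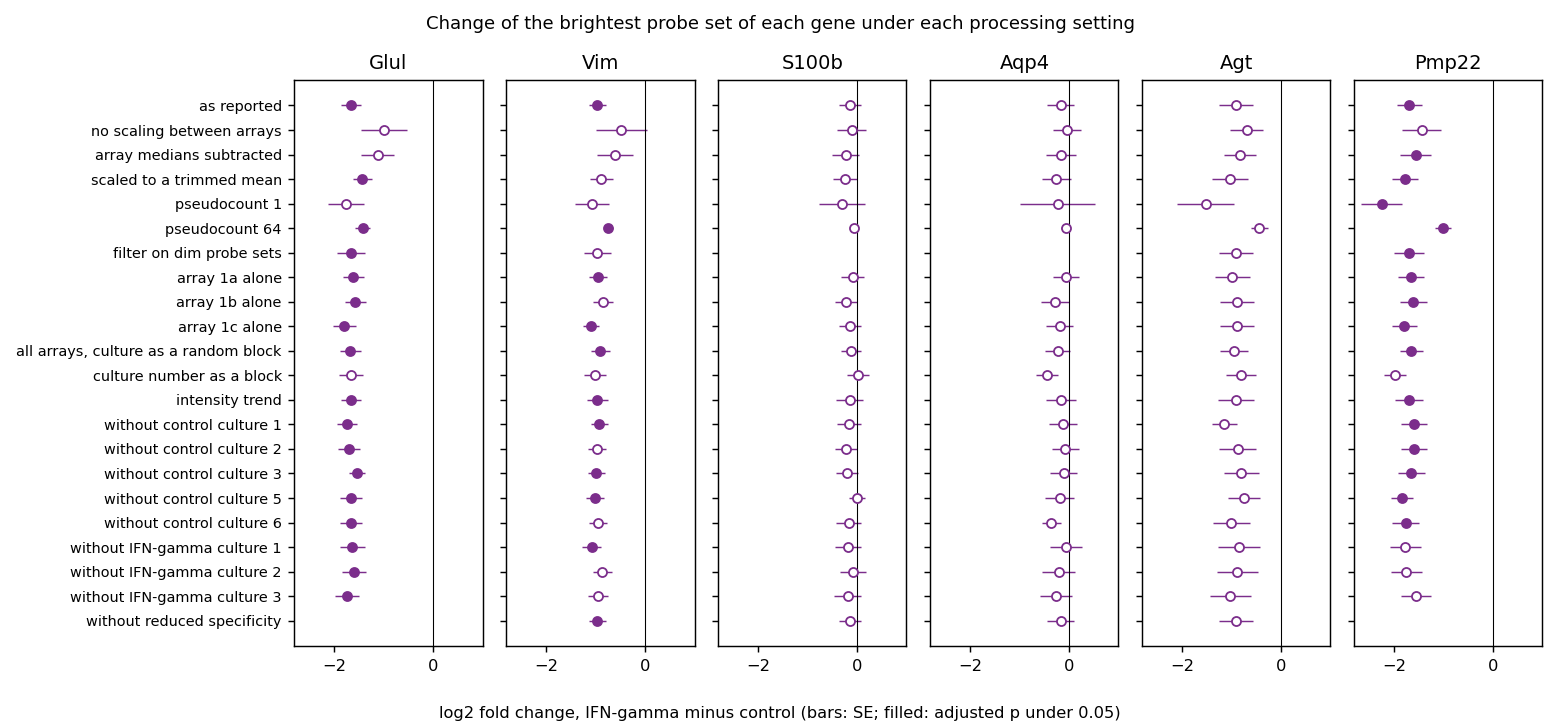
Log2 fold change (IFN-gamma minus control, bars SE) of the brightest probe set of each gene under the reported and 21 other processing settings, filled where the limma adjusted p is under 0.05. Glul, Vim, Aqp4, Agt and Pmp22 stay below 0 in each setting that could give a value, and S100b crosses 0 in 2.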

How the data were processed

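The values deposited by the authors are linear signal intensities, 1 for each probe set on each array. MAS5 and GCRMA are named per the submitters' processing notes, without version or role, and no source used here states a scaling between arrays. Array medians ran from 7.4 to 23.7, so the intensities were not on a common scale. No pair of arrays shared more than 80 identical signals among the 8740 probe sets tested, so none was taken as a duplicate.

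A pseudocount of 16 was added before taking log2, quantile normalisation was run across the 10 arrays on 8799 probe sets, 59 array controls were dropped and the 3 technical arrays of IFN-gamma culture 1 were averaged. Groups were compared with limma 3.58.1 in R 4.3.3 (a linear model with the single term group, moderated by eBayes, two-sided, Benjamini-Hochberg over 8740 probe sets). A gene was represented by its probe set with the highest mean over 8 cultures. Differences between the changes of 2 probe sets were tested by exact permutation (two-sided) of the cultures, with 56 choices of 3 of 8 cultures. The limma step was tested on simulated data.

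The genes and gene lists were chosen with earlier results of these data known. Named were all 6 genes, every list gene past the threshold, the 2 brightest of each list, some fixed astrocyte and microglia markers, and the 3 genes closest in course to each of the 6 above the median level. A few others are named for their role or after their values were seen (Prx, Agtr1b, Ace, Emp1, Nes, Kcnj10, Cd14, Cx3cr1 and Fcgr2b). All 6 symbols were found by Entrez identifier in RefSeq's table of GRCr8. The TATA box was searched in addition to the planned motifs. Culture numbers 1, 2 and 3 occur in both groups, but the labels do not say that they pair samples, so the fit has no block. Over all probe sets, cultures of the same number did not deviate together (correlations -0.0266, 0.00383 and -0.0146). Such correlations over many dim probe sets cannot settle pairing for single genes. Alternatives covered scaling, pseudocount, filters, technical arrays, variance model and each culture left out.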

Additional observations from a re-analysis of the deposited data

Results flagged for a closer look

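The level of S100b by probe set rc_AI146214_at was 5.44 in control culture 5, far from the other 4 controls, which lay between 4.55 and 4.78. Its gap to the nearest control was 0.739 of the range of the 5 controls, above Dixon's critical value of 0.71. It was the 1 value so marked among 14 probe sets examined, and chance marks about 1 group in 20.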

How the results depend on the processing

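Under 21 other settings the brightest probe sets of Glul, Vim and Pmp22 kept a negative log2 fold change wherever a value could be had. Glul kept its call in 16 of 20, Vim in 10 of 21 and Pmp22 in 15 of 20. With no scaling the values were -0.99, -0.48 and -1.44, and 38 probe sets were called higher and 1 lower, with 0 marker genes called. No scaling moved the median over all probe sets by 0.116, and the share of higher calls was 60.4% as reported, 97.4% with no scaling and 78.7% with array medians subtracted (27 lower, Glul -1.12, Vim -0.61, second S100b probe set -0.04). A trimmed mean gave Vim -0.88. A pseudocount of 1 gave Glul -1.76 (limma adjusted p = 0.0668) and Vim -1.07, with 42 probe sets higher, 25 lower and 0 marker genes called, and a pseudocount of 64 called 1 pathway gene, Anxa6. The filter on dim probe sets gave Vim -0.96 (limma adjusted p = 0.0679) and could give no value for S100b and Aqp4. Array 1b alone gave Vim -0.85. All arrays with culture as a random block called 124 probe sets higher, 6 marker genes and 1 pathway gene, Prx, which stands in both kinds of list. Without probe sets of reduced specificity 39 were higher and 20 lower. The brightest Glul and Pmp22 probe sets are of that kind and were not tested. The remaining Glul probe set, M91652complete_seq_at (-1, limma adjusted p = 0.247), and Pmp22 probe set, rc_AA924909_at (-0.45, limma adjusted p = 0.52), did not pass. Vim kept its call (limma adjusted p = 0.0335). With the culture number as a replicate block, a pairing that the labels do not state, none of the 3 genes passed. Glul was -1.66, Vim -1.01 and Pmp22 -1.98 (limma adjusted p = 0.1, 0.293 and 0.0553), and S100b was 0.02. In that setting 17 probe sets were higher, 5 lower and 0 marker genes called.

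With each culture left out in turn, 47 to 106 probe sets were higher and 21 to 50 lower, 1 to 3 marker genes and 0 to 1 pathway genes were called, and the log2 fold changes ran from -1.08 to -0.86 for Vim, from -1.84 to -1.55 for Pmp22, from -1.74 to -1.54 for Glul (call kept each time) and from -0.22 to 0.00188 for S100b, the last without control culture 5. The cause of these shifts was not tested. The number of arrays limits precision, and S100b, Aqp4 and Gja1 lie too near the floor for a fall as large as that of Glul to show.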
